A study of Sus scrofa with 20 samples.

Results

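GRPEL2 and the chaperones of mitochondrial protein import were followed by gene symbol in a table of RNA-sequencing counts from pig hypothalamus. Of the 8 symbols named (GRPEL2, GRPEL1, HSPA9, HSPD1, HSPE1, TIMM44, PAM16 and DNAJC19), 6 matched a row among the 25880 gene rows, and GRPEL1 and PAM16 matched none and were not analysed here. GRPEL2 was picked because its difference between breeds ran in opposite directions in females and males, so its values by breed and sex are given as a description with no test. The others were picked for their place in the same pathway, with results of these data already known.

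Most mitochondrial proteins are made in the cytosol and threaded through channels in both mitochondrial membranes. At the inner side of the TIM23 channel, the matrix chaperone HSPA9 (mortalin, the mitochondrial HSP70) binds the incoming chain and pulls it in through cycles of ATP hydrolysis, tethered there by TIMM44. DNAJC19 and PAM16 form a J-protein pair that tunes the ATPase, and GRPEL1 and GRPEL2 are the nucleotide exchange factors that release ADP so that a new cycle can start. Once inside, many chains fold within the HSPD1 chamber (HSP60), which HSPE1 (HSP10) closes as a lid. In human cells GRPEL1 is the housekeeping exchange factor, and GRPEL2 has been described as sensitive to oxidants. Neurons depend heavily on mitochondrial respiration, so this machinery is expressed throughout the brain.

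The hypothalami came from 4 groups of 5 pigs, all 2 months old: purebred Iberian females and males, and crossbred (Iberian x Large White) females and males. The Iberian is a fat-depositing breed and the Large White a lean breed, and the labels give no treatment for any group. Whole tissue was used, so fewer cells of a type and less RNA per cell cannot be told apart in any value below.

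Counts assigned to genes totalled 1430138 to 2384615 per library, or 4.04 to 4.62% of the entries counted. The mitochondrial messenger ND6, which is copied from the other strand than the remaining mitochondrial messengers, had 19.8 to 53.7 times the counts of COX1 in 19 libraries and 141 times in Iberian male replicate 5. With the counter's strand option unknown, the values of any gene below may come from its messenger or from transcripts of the opposite strand, which were not told apart. Astrocyte, oligodendrocyte, neuron and microglia markers were counted in every group, though single markers varied widely. Among the microglia markers with a row, CSF1R had 11569 counts over 20 libraries, C1QB 1062, C1QA 845, AIF1 89, CX3CR1 70 and P2RY12 48. Hypothalamic peptides were thinly counted, with AVP at 459 and HCRT at 330 counts over 20 libraries, and CRH at 0 in 15 of the 20. Iberian male replicate 5 stood apart, with anterior pituitary markers summing to 339 CPM (counts scaled to a common library size) against 0 to 3.82 in the other 19. Low-quality alignments took 5.33 to 5.92% of the entries in 7 libraries, namely every Iberian female and Iberian males 2 and 3 (the high-share libraries), against 2.73 to 3.88% in the other 13 (the low-share libraries).

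GRPEL2 (ENSSSCG00000014432) lies at 150510520 to 150520013 of chromosome 2 on Sscrofa11.1, as RefSeq places it. In the Iberian females it measured 28.4, 28.9, 25.3, 36.8 and 28.3 CPM in replicates 1 to 5. In the crossbred females it measured 39.3, 37.9, 45.9, 35.8 and 42.04 CPM. Each crossbred female lay above the Iberian female median, and the ranges met only where Iberian female 4, at 36.8, exceeded crossbred female 4.

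Among the males the order was the other way round. The Iberian males had GRPEL2 at 49.2, 47.8, 52.3, 43.3 and 37.2 CPM. The crossbred males had 24.6, 22.0, 28.8, 19.1 and 34.4 CPM. Every crossbred male lay below every Iberian male, the nearest pair being crossbred male 5 at 34.4 and Iberian male 5 at 37.2.

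Ordered by mean, GRPEL2 was 45.9 ± 5.87 CPM in Iberian males, 40.2 ± 3.92 in crossbred females, 29.5 ± 4.28 in Iberian females and 25.8 ± 5.998 in crossbred males (SD, n = 5 each). Neighbours in that order overlapped in range, while Iberian males did not overlap Iberian females, and crossbred females did not overlap crossbred males. As background, ranges that did not overlap were seen in 1.17% of the 7090 tested genes for lower values in crossbred than Iberian males, 0.536% for higher values in Iberian males than Iberian females, and 0.367% for lower values in crossbred males than crossbred females. Since GRPEL2 was chosen on these groups, nothing is read from that comparison.

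**Figure D1:**
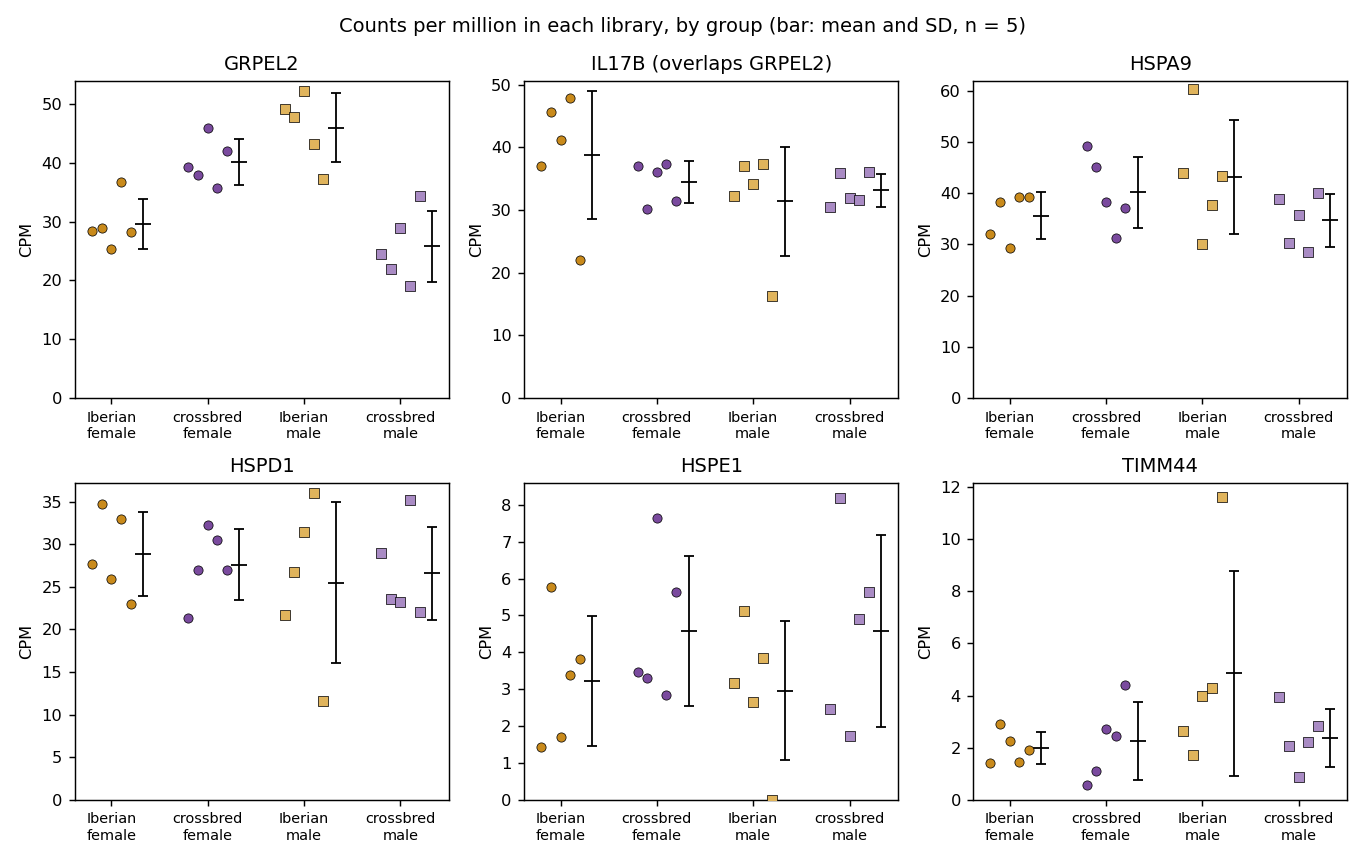
Level in CPM of 5 members and of IL17B, whose span overlaps GRPEL2, in each of the 20 libraries. Points are libraries in order of replicate number, and the bar beside each group is the mean and SD (n = 5). GRPEL2 sits between 37.2 and 52.3 in Iberian males and between 19.1 and 34.4 in crossbred males, while the groups overlap for the other genes shown.

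On the fitted log2 scale, the GRPEL2 difference, crossbred minus Iberian, was 0.43 (SE 0.16) in females, or 1.35-fold higher. In males it was -0.84 (SE 0.16), or 1.79-fold lower. The difference between those differences was -1.28 (SE 0.23), and averaged over both sexes the breed difference was -0.20 (SE 0.11), or -0.06 (SE 0.19) with a term for the split by low-quality alignments. In that comparison of differences 0.0141% of tested genes passed the threshold, which was GRPEL2 alone, the gene the choice rests on. The next 4 genes in order of p-value did not pass. They were ENSSSCG00000031599 at -2.18 (SE 0.50), ENSSSCG00000029291 at -1.52 (SE 0.37), PNRC2 at -1.82 (SE 0.46) and ERP44 at -1.68 (SE 0.43). All 4 had a fitted value of larger size than GRPEL2 and a larger standard error. The call by which GRPEL2 was chosen was itself narrow: no gene passed for the interaction with the replicate number as a block, with the alignment term, or in 12 of 20 fits with 1 library left out (Iberian females 1, 2, 3 and 5, crossbred females 1 and 5, Iberian males 1, 2 and 3, and crossbred males 1, 2 and 4).

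The number of counts behind GRPEL2 was modest, from 40 to 118 per library. Its coefficient of variation within groups was 14.5% in Iberian females, 9.76% in crossbred females, 12.8% in Iberian males and 23.3% in crossbred males. Counting error alone would give 13.9, 11.5, 10.6 and 13.8% at those depths, so the largest excess over counting error was in crossbred males.

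Some features of the libraries separated the breeds within a single sex. These included the alignment split and the share of entries with no feature in females, and the oligodendrocyte and anterior pituitary sums in males. Neuron sums overlapped in both sexes. The no-feature share was 81.0 to 82.0% in Iberian females and 82.2 to 83.9% in crossbred females. Pituitary markers summed to 1.71 to 3.54 CPM in Iberian males other than replicate 5 and to 0 to 0.98 in crossbred males. Those pituitary values lie near 0, and nothing is read from them. The part of these features in the GRPEL2 difference was not tested except where a value is given. The split by low-quality alignments separates Iberian from crossbred females completely, so in females the split and breed cannot be told apart. Among Iberian males, the 2 high-share libraries had GRPEL2 at 47.8 and 52.3 CPM and the 3 low-share libraries at 37.2 to 49.2. Among low-share males alone the breed difference was -0.74 (SE 0.22). With the split as a term, which Iberian males alone can estimate, it was -0.76 (SE 0.18) in males and 0.64 (SE 0.27) in females. Oligodendrocyte markers (6 of 7 with a row, none at 0 in any library) summed to 1412 to 1603 CPM in Iberian males. Without Iberian male 5, the lowest, this was 1413 to 1603. In crossbred males they summed to 1640 to 1893, which did not overlap. No share of all genes with ranges higher in crossbred males is given, so nothing is read from this. The sums of Iberian and crossbred females, 1473 to 1782 and 1494 to 2181.6, overlapped. Summed neuron markers (7 of 8 with a row) ran from 334 to 555 CPM in Iberian males and from 383 to 459 in crossbred males. The 555 was Iberian male 5, and the other Iberian males ran from 334 to 435. The female groups overlapped. Without Iberian male 5, the library with pituitary transcripts, the male GRPEL2 difference was -0.90 (SE 0.16).

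**Figure D2:**
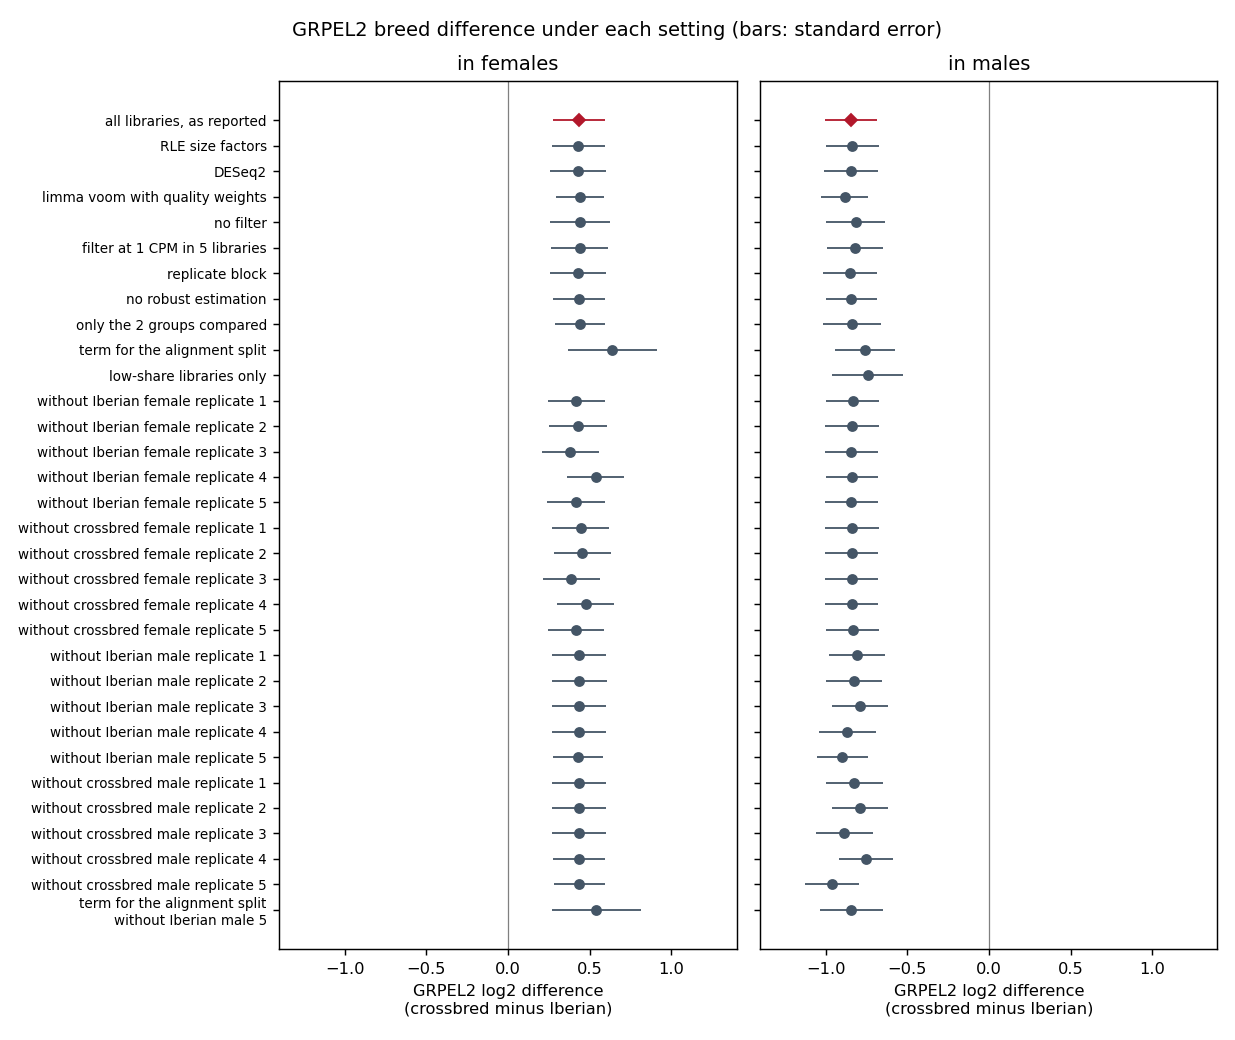
Log2 difference of GRPEL2 between breeds in females (left) and males (right), with its standard error, as reported and under each alternative setting or with 1 library left out. The value in females stays between 0.38 and 0.64, and the value in males between -0.96 and -0.74. All fits draw on the libraries by which GRPEL2 was chosen, so these ranges are a description.

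GRPEL2 shares 6403 bases of its span with IL17B, a cytokine gene that runs from 150513611 to 150583640. Exons and strands of these genes were not compared, so whether counts of either gene include reads of the other was not tested. IL17B had 1312 counts in all, close to the 1344 of GRPEL2. It measured 38.7 ± 10.2 CPM in Iberian females, 34.4 ± 3.35 in crossbred females, 31.4 ± 8.69 in Iberian males and 33.2 ± 2.61 in crossbred males (SD, n = 5 each). Its breed difference was -0.16 (SE 0.19, edgeR adjusted p = 0.983) in females and 0.05 (SE 0.19, edgeR adjusted p = 0.939) in males. Among males IL17B ran from 16.3 to 37.3 CPM in Iberian and from 30.5 to 36.1 in crossbred animals. The breeds thus overlapped for IL17B in males, where they did not for GRPEL2, while in females they overlapped for both genes. On the other side of GRPEL2, AFAP1L1 ends 2942 bases away and had 66 counts, and a long noncoding locus ends 515 bases away.

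HSPA9 (ENSSSCG00000014338), the motor that GRPEL2 serves, lies on the same chromosome at 140515239 to 140532164. It measured 32.0, 38.3, 29.3, 39.2 and 39.3 CPM in Iberian females and 49.1, 45.02, 38.2, 31.3 and 37.0 in crossbred females. The males had 43.9, 60.3, 30.1, 37.7 and 43.4 CPM when Iberian and 38.8, 30.2, 35.7, 28.5 and 40.05 when crossbred. The group means of HSPA9 fell in the same order as those of GRPEL2, but all groups overlapped, and Iberian males spanned from 30.1 in replicate 3 to 60.3 in replicate 2.

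The HSPA9 breed difference was 0.16 (SE 0.17, edgeR adjusted p = 0.983) in females and -0.31 (SE 0.17, edgeR adjusted p = 0.510) in males. The difference between sexes in that effect was -0.47 (SE 0.24, edgeR adjusted p = 0.608), with a 95% interval of -0.95 to 0.01. None of these passed. Leaving out 1 library moved the male value from -0.15, without Iberian male 2, to -0.42, without Iberian male 3.

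Taken as a ratio of raw counts, which needs no scaling, GRPEL2 stood at 0.83 ± 0.09 of HSPA9 in Iberian females and 1.02 ± 0.19 in crossbred females. In Iberian males the ratio was 1.13 ± 0.37 and in crossbred males 0.74 ± 0.09 (SD, n = 5 each). Within the males it ran from 0.79 to 1.74 in Iberian and from 0.63 to 0.86 in crossbred animals, which overlapped through Iberian males 2 and 5. Against HSPD1 the GRPEL2 ratio was 1.04 ± 0.15, 1.48 ± 0.24, 2.02 ± 0.76 and 1.03 ± 0.39 in the same order of groups. These ratios compare libraries with each other and not the levels of the genes, whose lengths differ.

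Across the 20 libraries, log2 CPM of GRPEL2 and HSPA9 had a Pearson r of 0.53 and a Spearman rho of 0.43. Because GRPEL2 was chosen for its differences between these groups, both are descriptions with no test. The r was 0.35 without crossbred males 2 and 4, the libraries farthest from the GRPEL2 median, 0.66 within the 13 low-share libraries and 0.38 within the 7 high-share libraries. Over deviations from the group means, which leave those differences out, r was 0.32 (permutation p = 0.172) and did not pass. Among 5995 other genes with a symbol, HSPA9 ranked 157 by likeness to GRPEL2.

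**Figure D3:**
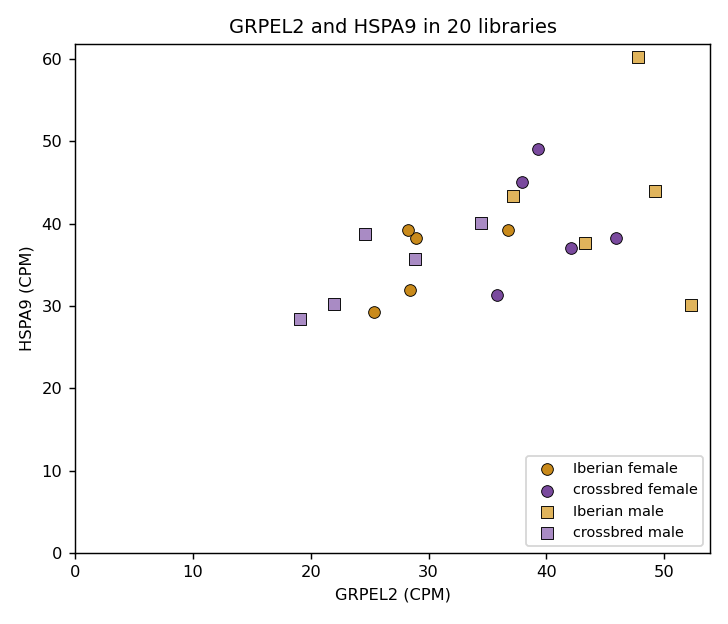
GRPEL2 against HSPA9, both in CPM, with 1 point per library and the group given by colour and shape. Crossbred males 4 and 2 have the least GRPEL2, at 19.1 and 22.0, and Iberian male 2 has the most HSPA9, at 60.3.

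The folding chamber did not follow GRPEL2 in its group values. HSPD1 (ENSSSCG00000016077), the barrel-shaped chaperonin, lies at 101360355 to 101373498 of chromosome 15. It measured 27.7, 34.7, 25.9, 32.9 and 23.0 CPM in Iberian females and 21.4, 26.9, 32.2, 30.5 and 27.0 in crossbred females. Iberian males had 21.7, 26.7, 31.4, 36.0 and 11.6 CPM, and crossbred males 29.0, 23.5, 23.2, 35.1 and 22.0. All groups overlapped, and the lowest of the 20 values belonged to Iberian male 5, with 15 counts.

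The HSPD1 breed difference was -0.05 (SE 0.21, edgeR adjusted p = 0.998) in females and 0.03 (SE 0.21, edgeR adjusted p = 0.971) in males. Without Iberian male 5 the male value was -0.12, and its sign also turned without Iberian male 1 or crossbred males 1 or 4 and with limma voom (-0.14), with an edgeR adjusted p no lower than 0.755 in any fit with 1 library left out. The 95% interval of the sex difference in the breed effect ran from -0.49 to 0.66 around 0.08.

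HSPE1 (ENSSSCG00000016078), the lid of the chamber, starts 520 bases from HSPD1, at 101374019 to 101376146, and is adjoined to it without overlap. It had only 0 to 16 counts per library, 146 in all. CPM was 1.42, 5.78, 1.69, 3.39 and 3.83 in Iberian females and 3.47, 3.29, 7.64, 2.84 and 5.65 in crossbred females. In Iberian males it was 3.18, 5.12, 2.66, 3.86 and 0, and in crossbred males 2.46, 8.19, 1.72, 4.89 and 5.64. All groups overlapped, and the library at 0 was again Iberian male 5.

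HSPE1 entered the test because 5 libraries reached the filter of 5.48 CPM, 4 of them crossbred, so it entered mainly through the breed in which it measured higher. Its breed difference was 0.48 (SE 0.48, edgeR adjusted p = 0.983) in females and 0.52 (SE 0.47, edgeR adjusted p = 0.702) in males. The male value was 0.30 without Iberian male 5 and 0.14 with limma voom. The female value was 0.32 without Iberian female 1 or 3, 0.73 without Iberian female 2 and 0.98 with the alignment term, and none of these passed. HSPD1 and HSPE1 had a Pearson r of 0.56 over 20 libraries (permutation p = 0.0181, adjusted p = 0.0271 over 3 pairs of members) and a Spearman rho of 0.25 (permutation p = 0.286, adjusted p = 0.286). Without Iberian male 5 the r was 0.11 (permutation p = 0.660), and without Iberian males 4 and 5, the 2 farthest from the HSPD1 median, it was also 0.11 (permutation p = 0.668), so the relation rests on 1 library. Within the low-share libraries, which hold Iberian male 5, r was 0.66 (n = 13, permutation p = 0.0279), and within the 7 high-share libraries 0.27 (exact permutation p = 0.549). HSPA9 and HSPD1 had an r of -0.34 (permutation p = 0.146, adjusted p = 0.146) and a rho of -0.47 (permutation p = 0.0368, adjusted p = 0.0876), with an r of -0.36 without the 2 libraries farthest from the HSPA9 median, -0.48 within the low-share and -0.11 within the high-share libraries.

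TIMM44 and DNAJC19 had too few counts to test. TIMM44 (ENSSSCG00000013591), the tether of the motor at 71271778 to 71287795 of chromosome 2, had 2, 4, 4, 3 and 4 counts in Iberian females, 1, 2, 5, 6 and 7 in crossbred females, 5, 3, 9, 10 and 15 in Iberian males and 8, 4, 2, 5 and 5 in crossbred males. Scaled as CPM to the summed counts of the group this was 1.88 (95% exact Poisson interval 1.09 to 3.01), 2.24 (1.39 to 3.42), 4.30 (3.10 to 5.81) and 2.34 (1.499 to 3.48), where the intervals cover counting error only. The Iberian male sum holds 15 of its 42 counts from replicate 5, the library with pituitary transcripts, and the part of that library in it was not tested. With no filter on low counts TIMM44 could be fitted, with a male breed difference of -0.91 (SE 0.45, edgeR unadjusted p = 0.0425, adjusted p = 0.593). CTXN1 lies 139 bases from TIMM44 and had 286 counts.

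DNAJC19 (ENSSSCG00000011770), the J-protein of the motor at 118907299 to 118913270 of chromosome 13, had 31 counts over 20 libraries and 0 in 6 of them. Group sums were 5 in Iberian females, 12 in crossbred females, 7 in Iberian males and 7 in crossbred males. With no filter its breed difference was 1.07 (SE 0.83, edgeR adjusted p = 0.864) in females and -0.11 (SE 0.87) in males. With so few assigned counts, a difference of the size seen for GRPEL2 was not detectable. No other RefSeq gene lies within 5000 bases of it.

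Apart from GRPEL2, 0 of the 3 tested members (HSPA9, HSPD1 and HSPE1) passed in any of 5 comparisons with edgeR, and 0 had an unadjusted p under 0.05. DESeq2 and limma voom also called 0, although DESeq2 gave no adjusted p for HSPE1 in males. Over all genes 7.48% had an unadjusted p under 0.05 for breed, 5.53% for breed in females, 10.7% for breed in males, 3.6% for sex and 8.36% for the interaction. Across all genes 0.226% passed for breed, 0% for breed in females, 0.0282% for breed in males, 0.0705% for sex and 0.0141% for the interaction, so a count of 0 in 3 lies near the background. Their sex differences, averaged over breeds, were 0.03 (SE 0.12) for HSPA9, -0.09 (SE 0.15) for HSPD1 and -0.02 (SE 0.34) for HSPE1, each with an edgeR adjusted p of 0.9999.

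The rest of the import and quality control pathway was read from 8 lists with 97 symbols, of which 85 had a row and 49 were tested. With edgeR and the filter on low counts no gene of these lists passed in any comparison, while 3 had an unadjusted p under 0.05 for breed, 1 in females, 9 in males, 1 for sex and 6 for the interaction. These are 6.12, 2.04, 18.4, 2.04 and 12.2% of the 49, to be read beside the shares of all genes given above. DESeq2 called 1, MTX1 in males, where it called 17 of all 7090 genes, and limma voom called 0 of the lists. With no filter edgeR tested 84 genes of the lists and 19471 in all. That fit called MTX1 and UQCRC2, each for breed and in males, beside 78 and 48 calls over all genes. The median log2 difference of the 49 genes was -0.02 in females and 0.05 in males, beside 0.01 and -0.01 over all 7090 genes. GRPEL2's combination of a value above 0 in females and below 0 in males was shared by 9 of 49 (18.4%), against 27.4% of all tested genes.

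**Figure D4:**
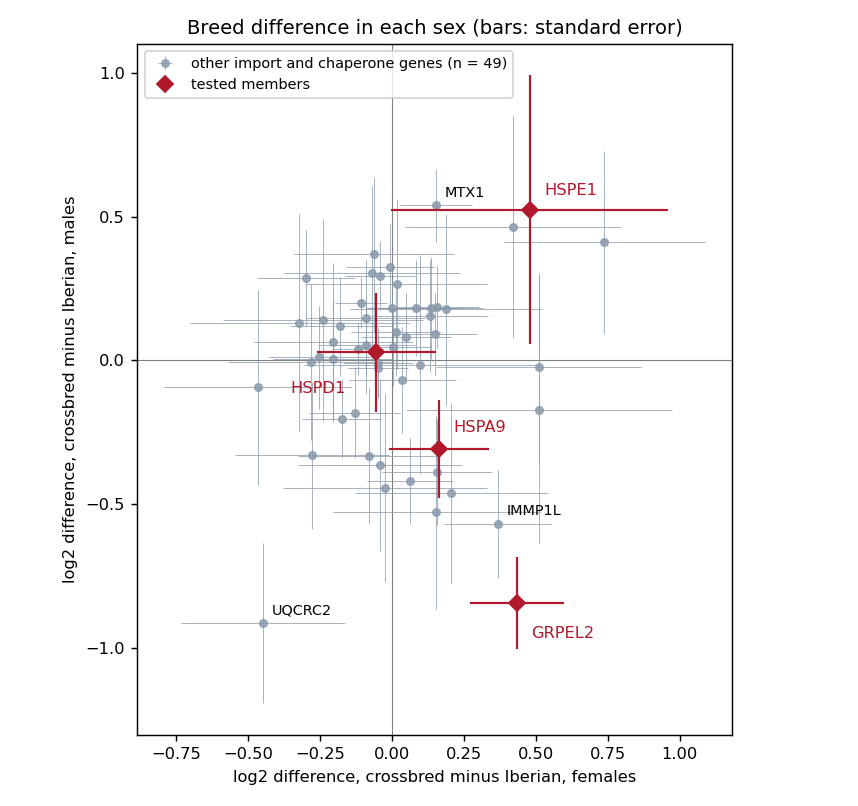
Log2 difference between breeds in females (horizontal) and in males (vertical) for the 4 tested members and 49 other import and chaperone genes, with standard errors. GRPEL2 lies at 0.43 and -0.84, to the lower right, where IMMP1L at 0.37 and -0.57 is the nearest of the others. MTX1 at 0.15 and 0.54 and UQCRC2 at -0.45 and -0.91 are also named.

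At the outer membrane, 12 of 20 listed genes of the entry gate and its cytosolic helpers were tested, and 7 were above 0 in males with a median of 0.04. MTX1, metaxin of the sorting machinery, measured 202 ± 32.1 CPM in Iberian males and 294 ± 33.9 in crossbred males (SD over 5 pigs each). The log2 difference was 0.54 (SE 0.13) with an edgeR adjusted p of 0.151, beside 0.15 (SE 0.13) in females. It passed in males with DESeq2 (adjusted p = 0.0317) and with no filter (edgeR adjusted p = 0.00595), but not with edgeR and the filter. With no filter it also passed for breed over both sexes (log2 0.37, edgeR adjusted p = 0.00966). DNAJA2, a cytosolic HSP70 co-chaperone, had -0.46 (SE 0.31, edgeR adjusted p = 0.595) in males.

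Of the inner membrane channels 4 of 11 were tested, with a median of 0.23 in males and 0.05 in females. TIMM22, the pore for carrier proteins, had 0.46 (SE 0.38, edgeR adjusted p = 0.669) in males, and ROMO1, a small subunit linked to TIM23, had 0.29 (SE 0.17, edgeR adjusted p = 0.533). In the intermembrane space 3 of 9 were tested. The oxidoreductase CHCHD4 had -0.36 (SE 0.30) in males and its partner GFER 0.14 (SE 0.35), with edgeR adjusted p of 0.665 and 0.907.

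Among 5 tested genes of the presequence processing list, the male values of UQCRC2 and IMMP1L had the largest sizes. UQCRC2, a core subunit of respiratory complex III that is related to the processing peptidase, measured 24.0 ± 5.65 CPM in Iberian and 12.7 ± 3.11 in crossbred males (SD over 5 pigs each). The log2 difference was -0.91 (SE 0.28) with an edgeR adjusted p of 0.225. With no filter it passed in males (edgeR adjusted p = 0.0381) and for breed over both sexes (log2 -0.66, edgeR adjusted p = 0.0150). IMMP1L, a subunit of the inner membrane peptidase, measured 33.2 ± 2.96 CPM in Iberian females, 43.1 ± 7.93 in crossbred females, 42.7 ± 12.6 in Iberian males and 28.6 ± 5.71 in crossbred males. Its breed difference differed between sexes by -0.94 (SE 0.26, edgeR adjusted p = 0.423), which did not pass.

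Other matrix chaperones had 3 tested genes of 6, and TRAP1, the mitochondrial HSP90, had -0.20 (SE 0.14, edgeR adjusted p = 0.594) in males, while BCS1L, which assembles complex III, had 0.18 (SE 0.09, edgeR adjusted p = 0.458). Quality control had 6 tested of 13 with a male median of 0.01, in which the scaffold prohibitin PHB1 had -0.53 (SE 0.34, edgeR adjusted p = 0.569) and the protease CLPP -0.18 (SE 0.16, edgeR adjusted p = 0.692). Of the mitochondrial stress response 6 of 16 were tested and 5 were above 0 in males, with a median of 0.09. Its transcription factors CEBPB and HSF1 had 0.37 (SE 0.27) and 0.19 (SE 0.14), at edgeR adjusted p of 0.620 and 0.638.

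Among the heat shock genes outside mitochondria 10 of 13 were tested, with 6 above 0 in males and a median of 0.09. HSP90B1 and HSPA5, the chaperones of the endoplasmic reticulum, had -0.39 (SE 0.19, edgeR adjusted p = 0.451) and -0.33 (SE 0.23, edgeR adjusted p = 0.609) in males.

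The genes whose log2 CPM was most like GRPEL2 over the 20 libraries, among 5995 with a symbol, were AP5M1, a subunit of the AP-5 vesicle adaptor (Pearson r 0.78), KCNIP4, a potassium channel partner (0.75), PLPP1, a lipid phosphatase (0.73), CYB5D2, a haem-binding protein (0.72), and KIAA1143 (0.72). Most opposed were ZCWPW1, a reader of histone methylation (-0.76), SPECC1, a cytoskeletal protein (-0.76), and SLC5A6, a vitamin transporter (-0.75). These are the extremes of 5995 values and carry no test. AP5M1 measured 28.4, 33.5, 38.2 and 25.9 CPM on average in Iberian females, crossbred females, Iberian males and crossbred males, the same order as GRPEL2. Over deviations from the group means, the r of these 5 genes with GRPEL2 was 0.49 to 0.67.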

How the data were processed

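Messenger RNA libraries of 20 hypothalami were sequenced as paired reads. The submitters' processing notes list HISAT2, HTSeq, FastQC, Trim Galore and DESeq2 with the build Sscrofa11.1, and versions, annotation release and strand setting were not given in these sources. The deposited table holds whole-number counts for each gene, not normalized, and the 5 summary lines of the counter were left out (no feature: 80.2 to 88.1% of entries). Symbols came from a reference table that named 57.4% of rows, and positions from RefSeq.

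Counts were tested with edgeR 4.0.16 (R 4.3.3): TMM scaling, edgeR filterByExpr on low counts (minimum 10 in 5 libraries, 15 in all) that kept 7090 genes, 1 mean per group over 20 libraries, robust quasi-likelihood, Benjamini-Hochberg adjustment over all genes, threshold 0.05. Alternatives used DESeq2 1.42.0, limma 3.58.1 and other settings. Intervals of differences are the estimate and its SE at 95%. Correlations used log2 CPM (prior count 2) with two-sided permutation tests of 100000 resamples, exact under 10 libraries. The fit was tested on simulated data. The labels do not say how the pigs were related or whether libraries shared a batch, so p-values measure only the spread between these samples.

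Members, lists and alternatives were chosen with earlier results of these data known. Named were all members, called genes of each list and the 2 with the largest male breed difference, genes within 5000 bases of a member, and the 5 most and 3 least like GRPEL2. No 2 libraries of a group agreed within sampling noise (chi-square per degree of freedom 2.45 to 73.8 over 40 pairs). Same-numbered libraries did not deviate together (correlation above 0.1 in 5 of 30 pairs), so replicate numbers were not treated as pairs.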

Additional observations from a re-analysis of the deposited data

Results flagged for a closer look

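GRPEL2 had a breed difference in males minus that in females of -1.28 on the log2 scale. The gene was chosen for this pattern, so the value is a description.

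In Iberian males, TIMM44 was 11.6 CPM in replicate 5 against at most 4.28 in the other 4, a gap to the nearest library that took more of the group's range than Dixon's limit allows. The same library had 15 counts of HSPD1 and 0 of HSPE1, the lowest of all 20, and 339 CPM of pituitary markers; the part of pituitary tissue in these values was not tested. Of 24 member groups examined 1 stood out, and chance flags about 1 in 20.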

How the results depend on the processing

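The count of called members other than GRPEL2 was 0 in every comparison fitted under each setting (breed within a sex alone where only 2 groups were compared, and within males alone for the low-share libraries), including the fit with the replicate number as a block, in which the GRPEL2 difference was 0.43 in females and -0.85 in males. GRPEL2 was chosen on these same libraries, so its values across the fits are a description. It kept its sign in females and in males in every fit: with 1 library left out it ran from 0.38 to 0.54 and from -0.96 to -0.75. The term for the alignment split with Iberian male 5 also left out, chosen after seeing the data, gave 0.54 and -0.84. With 1 library left out HSPE1 stayed above the filter in 10 of 20 fits. The r of GRPEL2 and HSPA9, a description, was 0.32 over deviations from the group means and 0.38 within the high-share libraries. The correlation of HSPD1 and HSPE1 lost its p under 0.05 without Iberian male replicate 5 (0.11) and within the high-share libraries (0.27). Of the 8 genes most like or most opposed to GRPEL2, 5 were named again by Spearman rho and 5 without Iberian male 5. Over all genes, calls for breed numbered 16 as reported, 27 with DESeq2, 24 with limma voom, 78 with no filter and 0 with the alignment term, and calls in males 2, 17, 10, 48 and 0. With 1 library left out, calls ran from 2 (without crossbred female 4) to 23 (without Iberian male 5) for breed, from 0 to 8 in females and from 0 to 7 in males, the last 2 highest also without Iberian male 5. Calls for the interaction numbered 1 as reported, 2 with DESeq2, 7 with no filter and 0 with the block or the alignment term. RLE size factors moved the median of all genes by under 0.05 in each comparison. Samples with the same number correlated best with their own number in 6 of 20 libraries. Low assigned counts limit HSPE1, TIMM44 and DNAJC19 most, since they had 0 to 16 counts per library.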
